A study of Mus musculus with 24 samples.

Results

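The genes described here are the eotaxins, the other CC chemokines of type 2 inflammation and 2 of their receptors. They are the rows of the deposited expression table with the symbols Ccl11, Ccl24, Ccl17, Ccl22, Ccl8, Ccl7, Ccl2, Ccl12, Ccr2 and Ccr4, 10 of 23891 genes, and all 10 passed the filter of a mean of at least 1 CPM, the count of a gene scaled to its library's total. RNA from the left lung lobe of 24 C57BL/6 mice was sequenced in 4 groups. Naive adult mice (20 wk old, n = 5) and naive aged mice (80 wk old, n = 5, called saline below) carry a saline treatment in their labels. The HDM group (80 wk old, n = 7) received intranasal house dust mite extract, at 50 µg per dose, for sensitization and then for 3 rounds of challenge. The HDM + Dex group (80 wk old, n = 7) received the same doses and the steroid dexamethasone (Dex) by intraperitoneal injection at 4 mg/kg every 72 h throughout the challenge. Challenged mice were killed 24 h after their final dose. No transgene or deletion is named for any group, and an HDM-challenged adult group was not analysed here, so that the responses below are those of aged lung.

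Chemokines are small secreted proteins that direct leukocytes along a gradient, and the CC family is named for a pair of adjacent cysteines. The eotaxins Ccl11 and Ccl24 act on CCR3, the receptor that eosinophils carry, and are made by epithelial cells, fibroblasts and macrophages under IL-4 and IL-13. Ccl17 and Ccl22 are products of dendritic cells and macrophages and bind CCR4, encoded by Ccr4, which marks T helper type 2 cells and regulatory T cells. Ccl2, Ccl7 and Ccl12 bind CCR2, encoded by Ccr2, the receptor with which inflammatory monocytes leave the bone marrow. Mouse Ccl8 is known as a CCR8 ligand in type 2 skin inflammation. Below, Ccl8 is grouped with Ccl2, Ccl7 and Ccl12 under the name monocyte chemokines, for description only.

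The genes lie in a few clusters on GRCm38. Ccl2 (chr11:82035571-82037453), Ccl7 (chr11:82045712-82047525), Ccl11 (chr11:82057823-82062955), Ccl12 (chr11:82101845-82103400) and Ccl8 (chr11:82115185-82116799) follow each other on the forward strand within 81.2 kb. Ccl22 (chr8:94745590-94751699) and Ccl17 (chr8:94810453-94812036) span 66.4 kb on the forward strand of chromosome 8. Ccl24 (chr5:135569937-135573049) lies alone on the reverse strand, and the receptor genes Ccr2 (chr9:124101950-124113557, forward strand) and Ccr4 (chr9:114490316-114504916, reverse strand) lie apart on chromosome 9. Ccl2 overlaps Gm17268 on the opposite strand, and since the handling of strand in the counting is not given in the sources used here, reads of these overlapping genes may not have been told apart. Although the 5 genes on chromosome 11 are close relatives, the longest run of identical bases between any members' transcripts was 23 nt, between Ccl7 and Ccl2.

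The 250 bases upstream of the RefSeq start (GRCm38.p6) are shown for the neighbours Ccl17 and Ccl22, which hold the only matches found among the searched motifs, and for the neighbours Ccl12 and Ccl8, whose levels followed each other across mice. Promoter sequences matched for 6 of the 10 genes (Ccl17, Ccl22, Ccl8, Ccl12, Ccr2 and Ccr4). Capitals mark a match, and bases are counted back from the start. Ccl17 covers chr8:94810203-94810452, Ccl22 chr8:94745434-94745683, Ccl12 chr11:82101595-82101844 and Ccl8 chr11:82114935-82115184, each on the forward strand.
Ccl17: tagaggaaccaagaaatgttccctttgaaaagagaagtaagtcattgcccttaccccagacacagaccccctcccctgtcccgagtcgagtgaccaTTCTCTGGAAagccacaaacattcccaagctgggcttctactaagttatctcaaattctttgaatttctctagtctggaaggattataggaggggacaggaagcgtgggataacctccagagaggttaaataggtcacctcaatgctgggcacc
Ccl22: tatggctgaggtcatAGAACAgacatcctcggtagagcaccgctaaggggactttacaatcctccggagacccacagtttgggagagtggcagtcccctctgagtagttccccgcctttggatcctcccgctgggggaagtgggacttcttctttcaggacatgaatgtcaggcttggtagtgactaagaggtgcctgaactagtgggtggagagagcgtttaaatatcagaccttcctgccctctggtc
Ccl12: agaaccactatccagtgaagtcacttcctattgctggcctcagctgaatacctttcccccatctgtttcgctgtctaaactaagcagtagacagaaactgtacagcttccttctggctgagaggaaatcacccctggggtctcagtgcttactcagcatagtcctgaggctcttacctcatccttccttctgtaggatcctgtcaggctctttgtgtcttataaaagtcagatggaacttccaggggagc
Ccl8: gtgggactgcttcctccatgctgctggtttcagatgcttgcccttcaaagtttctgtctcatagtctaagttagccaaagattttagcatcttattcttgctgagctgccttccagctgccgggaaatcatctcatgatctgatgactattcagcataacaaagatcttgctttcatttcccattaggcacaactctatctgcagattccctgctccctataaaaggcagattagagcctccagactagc

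The motifs searched on both strands were the STAT6 form (TTC and GAA around 4 free bases), AGAACA, a hexamer to which the glucocorticoid receptor binds, and the NF-kB consensus. No match overlapped another. The upstream stretch of Ccl17 held the STAT6 form at 154 to 145 bases before the start, and the same form occurred in 5.85% of the 32851 promoters searched. Ccl22 held AGAACA at 235 to 230 bases before the start, against 16.1% of promoters. None of the 6 stretches held the NF-kB form, which 0.140% of promoters held. These matches describe the letters alone.

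HDM challenge was compared with saline in the aged lung to find which of these signals accompany the allergic response. All 8 chemokine genes and Ccr4 rose, by 1.22 (Ccl2) to 3.52 (Ccl24) on the log2(CPM + 1) scale, a scale that understates the change of genes with low counts. Ccr2 was the exception, at 0.68 with an adjusted p of 0.0755. The 9 of 10 genes called higher (adjusted p under 0.05, limma) stand beside 4.04% of the 17744 genes tested, and the median log2 fold change of the 10 was 1.41 beside -0.23 over all genes tested. Among the 9, Ccl24, Ccl7, Ccl12 and Ccr4 had passed the filter only through the challenged groups, where they were high. No member was called lower, whereas 21.2% of all genes were. This balance depended on the scaling: after median-of-ratios rescaling, described with Ccr2 below, 10.9% of all genes were called higher and 11.6% lower, and all 10 members higher. Values of every HDM mouse exceeded those of every saline mouse for Ccl11, Ccl17, Ccl22 and Ccr4, and 1.03% of all genes were higher without overlap. In whole lung, a change in the number of cells of a type and a change in RNA per cell cannot be told apart.

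**Figure D1:**
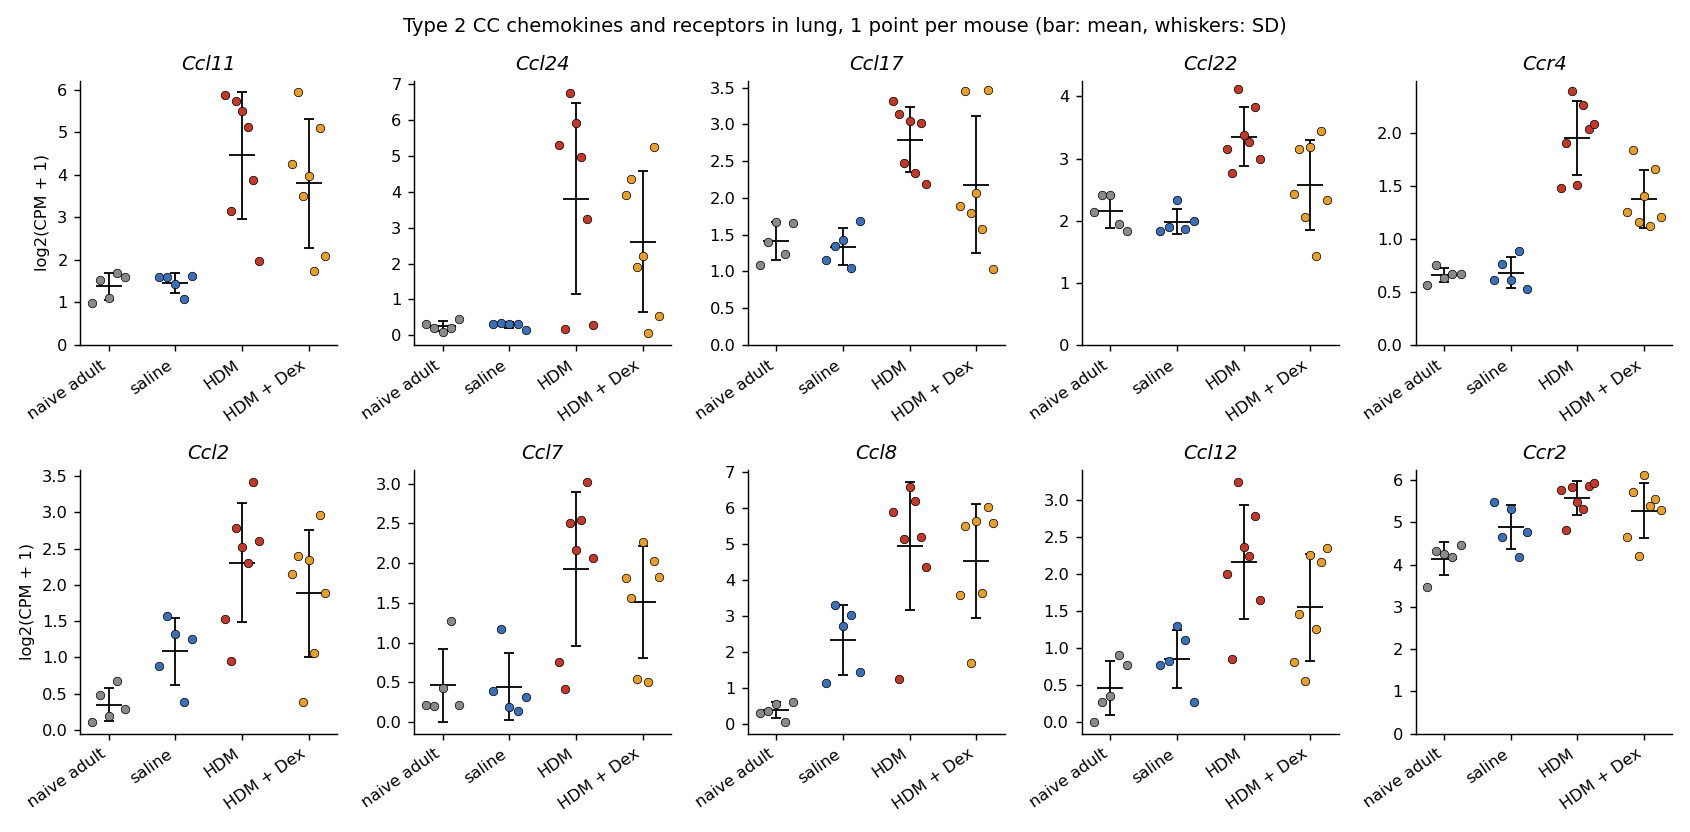
Level of each gene as log2(CPM + 1) on the y axis, by group on the x axis, with 1 point per mouse (n = 5, 5, 7 and 7), a bar at the mean and whiskers of 1 SD. HDM points lie above all saline points for Ccl11, Ccl17, Ccl22 and Ccr4, 2 HDM mice lie at saline level for Ccl24, and HDM + Dex points overlap HDM points for each gene.

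The eotaxins rose by the largest amounts with Ccl8 and varied most between HDM mice, with coefficients of variation of 73.3% for Ccl11 and 110% for Ccl24. In saline lungs Ccl11 was at 2.01, 2.03, 1.69, 1.11 and 2.08 CPM in replicates 1 to 5. In HDM lungs it ran from 2.96 to 57.7 CPM with a median of 33.7, and in HDM + Dex lungs from 2.36 to 61.1 CPM with a median of 14.8. Both challenged groups lay wholly above saline, with a 19.5-fold range within the HDM group. Mean Ccl11 was 30.3 ± 22.2 CPM (SD, n = 7) with HDM and 1.78 ± 0.408 CPM (SD, n = 5) with saline, a log2 fold change of 3.00 (SE 0.65, adjusted p = 0.0028).

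Ccl24 was close to silent in unchallenged lung and became one of the most abundant members in some challenged mice. Saline replicates 1 to 5 held 0.247, 0.280, 0.242, 0.251 and 0.0990 CPM, estimated at 2 to 8 reads each. HDM replicates 1 to 7 held 38.9, 0.134, 107, 60.0, 30.7, 8.51 and 0.212 CPM. Thus 5 HDM mice were far above saline and replicates 2 and 7 lay within the saline range, so that 27 of 35 pairs of mice were higher with HDM. In HDM + Dex lungs the range was 0.0474 to 37.4 CPM around a median of 3.65. The log2 fold change of HDM over saline was 3.52 (SE 1.01, adjusted p = 0.0150).

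The same mice ranked high or low for both eotaxins. Over the 14 challenged mice, with group means removed, Pearson's r between Ccl11 and Ccl24 was 0.93, the highest of the 45 pairs of members, and this r is a description of mice that share libraries and challenge. The log2 ratio of Ccl24 to Ccl11 was taken after adding 1 CPM to each. It averaged -0.65 ± 1.34 (SD, n = 7) with HDM and -1.17 ± 0.27 (SD, n = 5) with saline. That difference of 0.53 was within the spread (two-sided exact permutation test, p = 0.414, adjusted p = 0.932 over 8 ratio comparisons). Since Ccl24 was at most 0.280 CPM in saline, the added 1 largely set the saline ratio. The test therefore cannot tell whether the balance of the eotaxins moved.

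Among HDM mice the mean levels of the eotaxins were higher in males, which were also the mice with the larger share of 7SL RNA, an abundant cytoplasmic RNA. The 7SL share was 9.92% to 18.1% in saline, 14.96% to 34.0% in HDM and 11.3% to 31.6% in HDM + Dex mice, and in naive adult mice 13.6% to 17.2% apart from replicate 1, at 42.0%. By Xist and Ddx3y, 2 of 5 saline, 2 of 7 HDM and 4 of 7 HDM + Dex mice were female, and the female HDM mice were the 2 HDM mice with a 7SL share under 25%. Mean Ccl11 was 39.1 CPM in the 5 male and 8.28 CPM in the 2 female HDM mice, against 2.04 CPM in the 3 male and 1.40 CPM in the 2 female saline mice. Mean Ccl24 was 47.4 CPM in the male and 4.36 CPM in the female HDM mice, against 0.209 and 0.247 CPM in saline. Mean Ccl11 was therefore higher with HDM within each sex, as was Ccl24 in males. In females the higher mean of Ccl24 rested on HDM replicate 6, at 8.51 CPM, since the other female, replicate 7, held 0.212 CPM, below both female saline mice. Single mice departed from this: HDM replicate 2, a male with a 7SL share of 28.6%, held 7.83 CPM of Ccl11 and 0.134 CPM of Ccl24. Female HDM replicate 6, with a share of 15.4%, held more of both, at 13.6 and 8.51 CPM. Sex and 7SL share cannot be told apart in the HDM group. With the 7SL share as a covariate the log2 fold changes were 1.47 for Ccl11 (adjusted p = 0.167) and 1.23 for Ccl24 (adjusted p = 0.490), and its part in these results was not tested further.

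**Figure D2:**
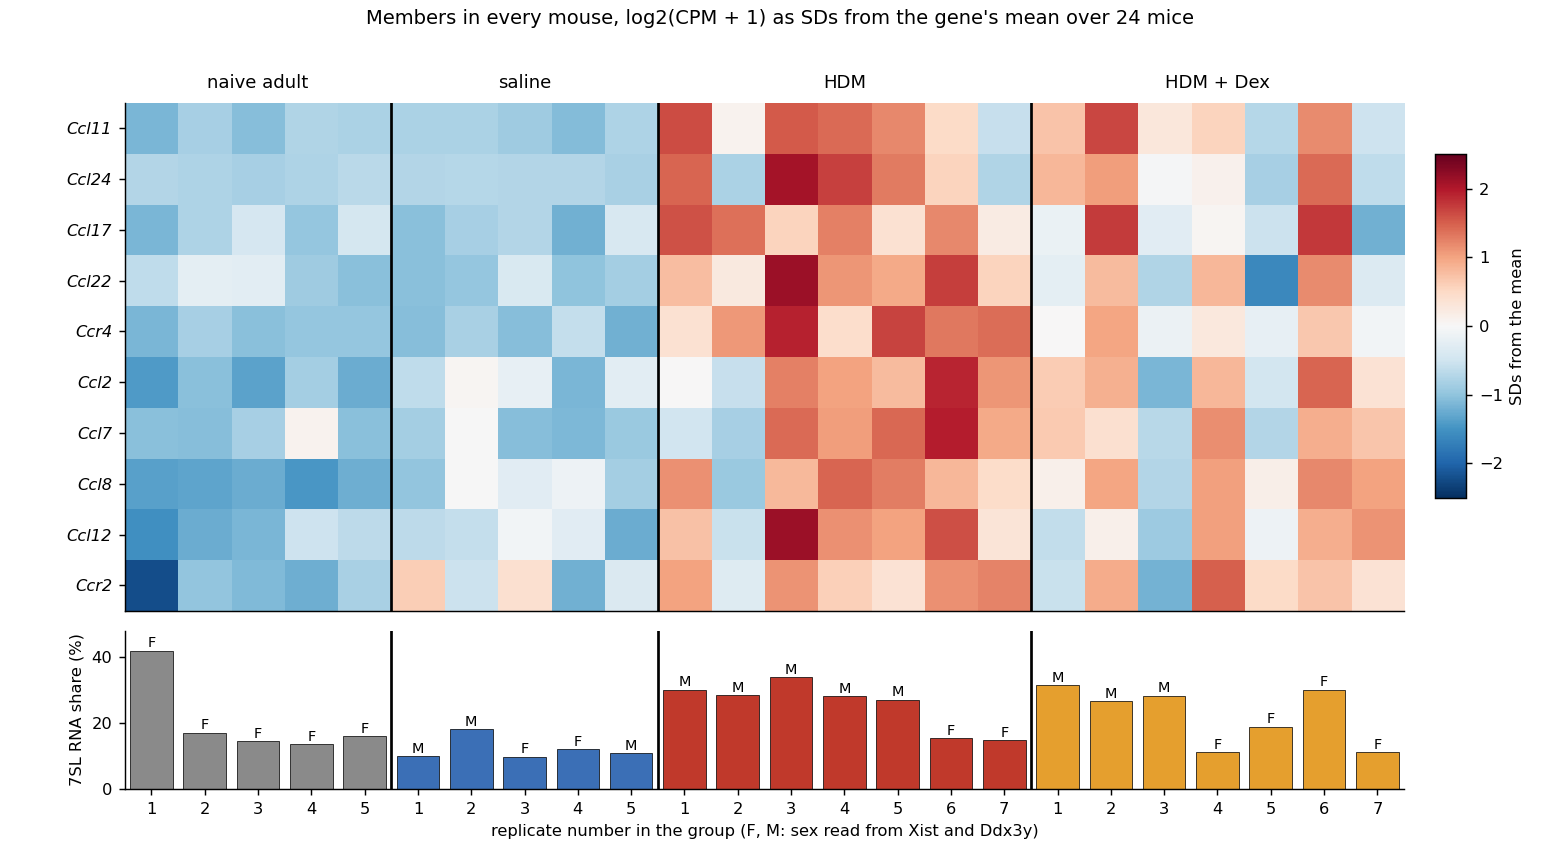
Each column is a mouse, in replicate order within its group, and each row a gene; color gives log2(CPM + 1) as the number of SDs from that gene's mean over 24 mice. Bars below show the 7SL RNA share in percent, with the sex read from Xist and Ddx3y above each bar. HDM replicate 2 is pale or blue for most monocyte chemokines and Ccl24, and HDM replicate 7 is blue for the eotaxins alone.

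Ccl17 and Ccl22, the ligands of CCR4, rose in each HDM mouse, with the highest mouse at 2.52 and 2.80 times the lowest. Ccl17 was at 1.24, 1.54, 1.69, 1.06 and 2.23 CPM in saline replicates 1 to 5 and ran from 3.56 to 8.99 CPM with a median of 7.07 in HDM mice. Ccl22 was at 2.58, 2.73, 4.01, 2.66 and 2.97 CPM in saline and ran from 5.82 to 16.3 CPM with a median of 8.61 in HDM mice. For both ligands the lowest HDM mouse was above the highest saline mouse. The log2 fold changes were 1.46 for Ccl17 (SE 0.34, adjusted p = 0.0044) and 1.37 for Ccl22 (SE 0.29, adjusted p = 0.0022).

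Ccr4, the receptor gene of these ligands, was low throughout and higher in each HDM mouse. It was at 0.530, 0.700, 0.532, 0.855 and 0.445 CPM in saline replicates 1 to 5, and ran from 1.80 to 4.28 CPM with a median of 3.12 in HDM mice. The groups did not overlap, and the log2 fold change was 1.27 (SE 0.18, adjusted p = 0.0003), the lowest adjusted p among the members. None of the 8 listed T cell markers, including genes of the T cell receptor complex, was called (limma), 0 of them had an unadjusted p under 0.05, and their summed level was 34.0 to 113 CPM in saline and 52.8 to 155 CPM in HDM mice. The fold changes of all 8 T cell markers were above 0, from 0.0046 to 0.57, with a median of 0.27 beside -0.23 over all genes tested. After rescaling that list's median was 0.50, and Cd3e was called higher (0.63, adjusted p = 0.0380). Of the dendritic cell markers, Itgax (1.88, adjusted p = 0.0004) and Fscn1 (1.18, adjusted p = 0.0139) were called higher among 9, and after rescaling Cd83 was a further call (0.96, adjusted p = 0.0246). Their part in the CCR4 axis was not tested. With the 7SL share as a covariate Ccl17 lost its call (0.96, adjusted p = 0.135), and Ccl22 and Ccr4 kept theirs. The log2 ratio of Ccl17 to Ccl22 differed by 0.09 between HDM and saline (exact permutation test, p = 0.816, adjusted p = 0.932).

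Among the monocyte chemokines Ccl8 reached the highest level. It was at 1.2005, 8.82, 5.56, 7.14 and 1.73 CPM in saline replicates 1 to 5, and ran from 1.41 to 93.3 CPM with a median of 35.4 in HDM mice. Apart from HDM replicate 2, at 1.41 CPM, each HDM mouse was above each saline mouse, and 31 of 35 pairs were higher. Mean Ccl8 was 44.8 ± 31.7 CPM (SD, n = 7) with HDM and 4.89 ± 3.34 CPM (SD, n = 5) with saline, a log2 fold change of 2.61 (SE 0.77, adjusted p = 0.0169). The call rested on few mice: without saline replicate 1 the adjusted p was 0.0562, and with the 7SL share as a covariate it was 0.0756.

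Ccl2, Ccl7 and Ccl12, the CCR2 ligands, moved together at lower levels. Ccl7 was at 0.318, 1.26, 0.145, 0.101 and 0.247 CPM in saline and ran from 0.335 to 7.14 CPM, median 3.48, in HDM mice. Its log2 fold change was 1.48 (SE 0.40, adjusted p = 0.0102). Ccl12 was at 0.706, 0.770, 1.45, 1.16 and 0.198 CPM in saline and ran from 0.803 to 8.46 CPM, median 3.72, in HDM mice. It rose by 1.31 (SE 0.36, adjusted p = 0.0113) on the log2 scale. Ccl2, the main monocyte attractant of this set, was at 0.847, 1.96, 1.499, 0.302 and 1.39 CPM in saline and ran from 0.937 to 9.73 CPM, median 4.74, in HDM mice. Its log2 fold change of 1.22 (SE 0.40) had an adjusted p of 0.0294, which rose to 0.0684, 0.0796, 0.0598 and 0.0514 without saline replicate 1, saline replicate 4, HDM replicate 3 and HDM replicate 4, and to 0.0837 with the 7SL share as a covariate. HDM replicate 2 was the lowest HDM mouse for Ccl2, Ccl7, Ccl8, Ccl12 and Ccr2, and HDM replicate 6 the highest for Ccl2 and Ccl7. Ccl2 and Ccl7 were the closest pair after the eotaxins, with r = 0.91 over the 14 challenged mice with group means removed.

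Ccr2, the receptor of these ligands, was the member not called with HDM. It was at 43.8, 24.1, 39.0, 17.2 and 26.4 CPM in saline replicates 1 to 5 and ran from 27.1 to 59.5 CPM, median 53.3, in HDM mice. The groups overlapped, and the log2 fold change of 0.68 (SE 0.28) had an adjusted p of 0.0755. The deposited CPM carry a shift in the median gene of -0.23 between HDM and saline. After median-of-ratios rescaling, which brought that median to -0.01, Ccr2 was called higher (0.93, adjusted p = 0.0141), and so were the other 9 members. Ccr2 also passed without HDM replicate 2 (adjusted p = 0.0352), without HDM + Dex replicate 3 (adjusted p = 0.0457), with sex or the 7SL share as a covariate, and with the 2 groups fitted alone. Among 8 listed inflammatory monocyte markers, those called higher were Fn1 (1.17) and Cd14 (0.98).

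Per kilobase of exon, the scale on which genes can be compared, the order of the members changed with challenge. In saline lungs the highest mean levels were those of Ccl8 (9.57 ± 6.53 CPM per kb), Ccr2 (4.45 ± 1.63) and Ccl17 (3.02 ± 0.881), and the lowest those of Ccr4 (0.198 ± 0.0530) and Ccl24 (0.173 ± 0.0551; SD, n = 5 each). With HDM the order was led by Ccl8 (87.7 ± 62.0 CPM per kb), Ccl11 (28.03 ± 20.55) and Ccl24 (27.1 ± 29.9), followed by Ccl17 (12.04 ± 4.09; SD, n = 7 each). Ccl24 thus went from the last to the third place among the 10, and its mean lay within 1 SD of those of Ccl11 and Ccl17, as that of Ccl8 did of its neighbor Ccl11. Ccr4 was last with HDM, at 0.963 ± 0.301 CPM per kb.

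HDM + Dex was compared with HDM to ask whether the steroid lowered these signals in aged lung. None of the 10 members was called in either direction (limma), beside 0.964% of all genes, and 2 of them, Ccr4 and Ccl22, had an unadjusted p under 0.05. The count of called members was also 0 under each of the 28 alternatives run. The fold change of each member was below 0, from -0.30 (Ccr2) to -1.201 (Ccl24), with a median of -0.59 beside 0.03 over all genes tested. Levels of the members were correlated over these mice (r up to 0.93 with group means removed), so the 10 signs are not separate observations. In other lists the fold changes above 0 were 0 of 8 T cell, 1 of 9 dendritic cell and 4 of 6 fibroblast markers. Since both comparisons use the same HDM mice, a low or high HDM mouse moves them together, and the fold changes are given only for each comparison on its own.

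**Figure D3:**
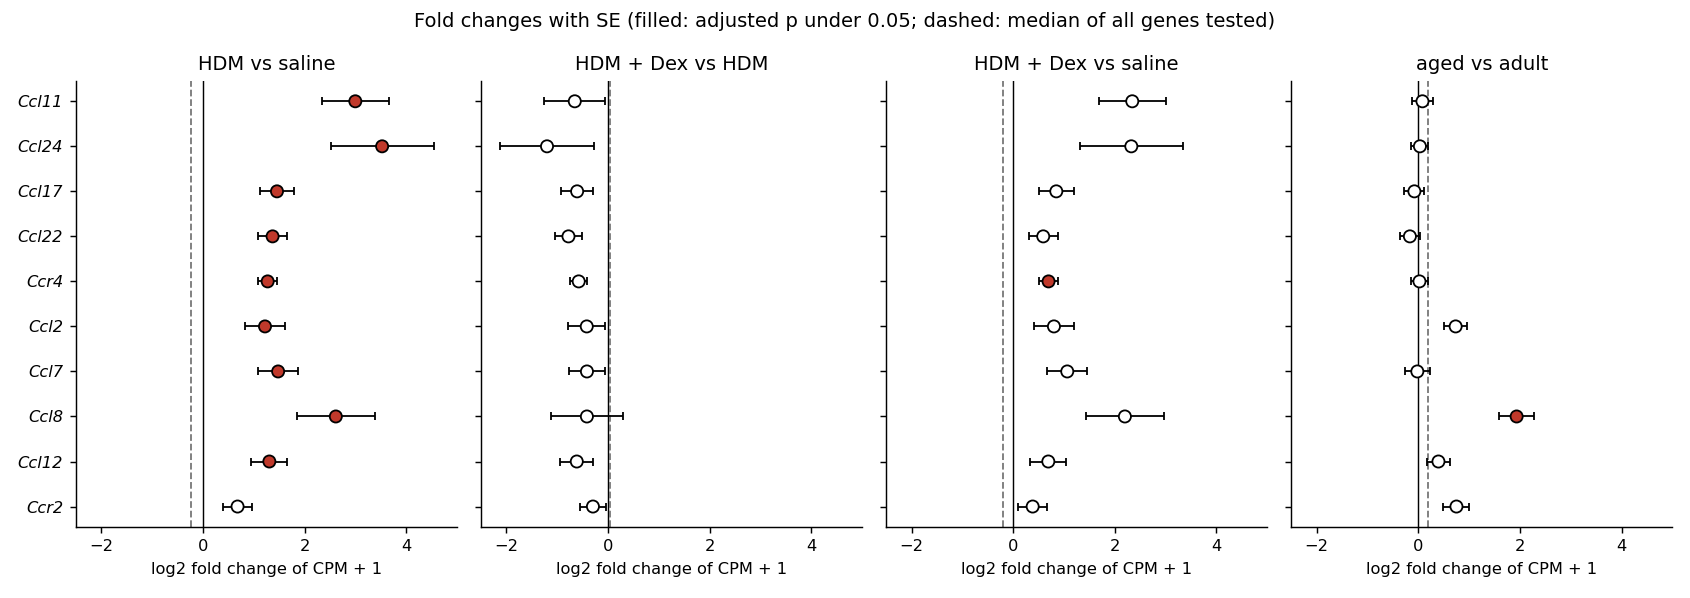
Log2 fold change of CPM + 1 on the x axis for each gene, in 1 panel per comparison, with the SE as a bar. Filled points had an adjusted p under 0.05, and the dashed line is the median of all genes tested. Points lie right of 0 in the HDM vs saline panel (9 filled), left of 0 and open in the HDM + Dex vs HDM panel, and only Ccr4 is filled in the third panel and only Ccl8 in the fourth.

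Ccr4 came nearest to the threshold. It ran from 1.18 to 2.58 CPM, median 1.39, in HDM + Dex mice against 1.80 to 4.28 CPM in HDM mice, and 4 of 49 pairs of mice were higher with Dex. The log2 fold change was -0.58 (SE 0.17, 95% CI -0.92 to -0.23, adjusted p = 0.0942). T cell markers lay on the same side: the fold changes of all 8 were below 0, from -0.25 to -1.06 with a median of -0.47, none was called (limma), and 1 had an unadjusted p under 0.05. Their summed level was 28.5 to 133 CPM with Dex and 52.8 to 155 CPM with HDM alone, and its part in the values of Ccr4 was not tested. Ccl22 ran from 1.70 to 9.84 CPM, median 4.36, with Dex, and its log2 fold change was -0.78 (SE 0.26, 95% CI -1.32 to -0.23, adjusted p = 0.155). Its partner Ccl17 ran from 1.05 to 10.1 CPM, median 2.69, with a log2 fold change of -0.61 (adjusted p = 0.405). HDM + Dex replicates 2 and 6 held 9.91 and 10.1 CPM of Ccl17, above each HDM mouse, while the other 5 lay between 1.05 and 3.18 CPM, below the lowest HDM mouse.

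For the eotaxins the comparison with Dex had little precision. Ccl24 differed by -1.201 with a 95% CI from -3.11 to 0.71 (adjusted p = 0.635), and Ccl11 by -0.65 with a 95% CI from -1.89 to 0.58 (adjusted p = 0.706). Mean Ccl24 was 11.2 ± 13.7 CPM (SD, n = 7) with Dex and 35.1 ± 38.7 CPM (SD, n = 7) without. These intervals include both no change and a fall of more than 2-fold. Within each sex the comparison of the eotaxins rested on few mice, and each mouse was left out in turn after the values were seen. In males mean Ccl24 was 12.2 CPM with Dex (n = 3) and 47.4 CPM without (n = 5), and in females 10.4 CPM with Dex (n = 4) and 4.36 CPM without (n = 2). The female mean with Dex was carried by HDM + Dex replicate 6, at 37.4 CPM, and was 1.39 CPM without it, below that of the female HDM mice, which itself was 0.212 CPM without HDM replicate 6. Mean Ccl11 was 29.9 CPM with Dex and 39.1 CPM without in males, and 13.4 and 8.28 CPM in females. The male mean with Dex was 14.2 CPM without HDM + Dex replicate 2 and 39.6 CPM without replicate 3, and the female mean 6.81 CPM without replicate 6. Leaving out 1 mouse thus turned the direction for Ccl11 in both sexes and for Ccl24 in females. Mean Ccr4 was lower with Dex in both sexes, at 1.74 against 2.89 CPM in males and 1.57 against 3.19 CPM in females, and stayed so without any 1 of these mice. The mice were also split at a 7SL share of 25%. At high shares mean Ccl24 was 18.5 CPM with Dex (n = 4) and 47.4 CPM without (n = 5). At low shares it was 1.39 (n = 3) and 4.36 CPM (n = 2). Mean Ccl11 was 30.7 against 39.1 CPM at high and 6.81 against 8.28 CPM at low shares. Both eotaxins thus had lower means with Dex in each part. HDM + Dex replicate 6 was the only challenged female with a high share, at 30.2%. These parts held few mice, and none was left out in turn. The log2 ratio of Ccl24 to Ccl11 differed by -0.55 (exact permutation test, p = 0.366, adjusted p = 0.932), and the 5 ratio comparisons not given here had p from 0.399 to 0.942 in the same test.

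The monocyte chemokines gave intervals that included 0. The log2 fold changes with Dex were -0.62 for Ccl12 (adjusted p = 0.427), -0.42 for Ccl2 (adjusted p = 0.689), -0.42 for Ccl7 (adjusted p = 0.689), -0.42 for Ccl8 (adjusted p = 0.864) and -0.30 for Ccr2 (adjusted p = 0.683). Ccl8 kept a median of 44.4 CPM with Dex, against 35.4 CPM with HDM alone, and its fold change went from -1.03 without HDM replicate 2 to 0.055 without HDM + Dex replicate 3. HDM + Dex replicate 3 was the lowest of its group for Ccl2, Ccl8, Ccl12 and Ccr2, and replicate 5 the lowest for Ccl7, Ccl11, Ccl22, Ccl24 and Ccr4.

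HDM + Dex was also compared with saline, to ask which members stayed above the unchallenged level. Each fold change was above 0, from 0.38 (Ccr2) to 2.34 (Ccl11), with a median of 0.83 beside -0.19 over all genes tested. Ccr4 was the single member called, at 0.70 (SE 0.18, adjusted p = 0.0497), beside 0.445% of all genes called higher. Over all genes 79 were called higher and 256 lower, and after rescaling 87 and 80. Each HDM + Dex mouse was above each saline mouse for Ccr4 and Ccl11, and 0.524% of all genes were higher without overlap. The Ccr4 call was marginal, at an adjusted p of 0.0534 after rescaling, 0.0583 with no filter on low values, 0.0626 with the replicate number as a block, 0.261 with the 7SL share as a covariate and up to 0.133 (without saline replicate 3) when 1 mouse was left out. It was lost without any one of the 5 saline mice, HDM replicates 2, 4, 5, 6 or 7, or HDM + Dex replicates 1, 2, 3 or 6. Ccl11, at 2.34 (SE 0.65, adjusted p = 0.0624), passed with sex as a covariate (2.57, adjusted p = 0.0125), with the replicate block (2.69, adjusted p = 0.0247), with the 2 groups fitted alone (adjusted p = 0.0326), and without HDM replicate 7 (adjusted p = 0.0400), HDM + Dex replicate 5 (adjusted p = 0.0317) or HDM + Dex replicate 7 (adjusted p = 0.0277). With the 7SL share as a covariate its log2 fold change was 1.14 (adjusted p = 0.571). Ccl24 (2.32, adjusted p = 0.197) and Ccl8 (2.20, adjusted p = 0.126) had fold changes of like size with a wider spread, and 30 and 32 of 35 pairs of mice were higher.

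Naive aged and naive adult lungs were compared to see which members differ with age before any allergen. Ccl8 rose with age, from 0.242, 0.297, 0.478, 0.0542 and 0.538 CPM in adult replicates 1 to 5 to between 1.2005 and 8.82 CPM in the aged mice, the values given above. Each aged mouse was above each adult mouse, and the log2 fold change was 1.93 (SE 0.35, adjusted p = 0.0120). This 1 of 10 members called stands beside 0.592% of all genes called higher, and 2.91% of all genes were higher without overlap. Over all genes 105 were called higher and 11 lower, and after rescaling 103 and 80. Naive adult replicate 1 stood apart, with a 7SL share of 42.0% and a rescaling factor of 0.612 against 1.04 to 1.14 in the other adult mice. Without it 100 genes were called higher and 54 lower, the median over all genes went from 0.19 to 0.044, and Ccl8 stayed called (1.92, adjusted p = 0.0414). All 5 adult mice and 2 of the 5 aged mice were female by Xist and Ddx3y, and Ccl8 was 5.56 and 7.14 CPM in the female aged mice. In a fit of all 24 samples together, with the wider spread of the challenged groups, the adjusted p of Ccl8 was 0.341.

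Of the CCR2 axis, Ccl2 and Ccr2 were higher in most pairs of aged and adult mice but did not pass the test, and Ccl7 was not higher. Ccl2 was at 0.0808, 0.395, 0.137, 0.595 and 0.215 CPM in adult replicates 1 to 5, its log2 fold change was 0.73 (adjusted p = 0.193), and 23 of 25 pairs were higher in aged mice. Ccr2 was at 10.01, 19.1, 18.0, 16.98 and 21.02 CPM in adult mice, with a log2 fold change of 0.75 (adjusted p = 0.254) and 22 of 25 pairs higher in aged mice. The eotaxins, the CCR4 ligands and Ccr4 lay within 0.17 of 0 on the log2 scale, where the median of all genes was 0.19, as did Ccl7 (-0.02), and Ccl12 was at 0.40 (adjusted p = 0.515). The signs of Ccl11, Ccl24 and Ccr4 turned negative after rescaling, at -0.041, -0.018 and -0.055, and that of Ccl11 without naive adult replicate 1 (-0.019).

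Other CC family and type 2 genes were measured beside the members in HDM vs saline. Of 10 other CC chemokines tested, Ccl9 (2.73, adjusted p = 0.0005) and Ccl6 (1.81, adjusted p = 0.0031), both macrophage products that bind CCR1, were called higher and Ccl28 (-0.63, adjusted p = 0.0417) lower, the last not after rescaling (adjusted p = 0.120), which added Ccl3 (0.84, adjusted p = 0.0459), and the list's median was -0.11. Among 11 other receptors, those called higher included Ccr3 (1.44, adjusted p = 0.0344), Ccr1 (0.88, adjusted p = 0.0276) and Ackr1 (0.84, adjusted p = 0.0163), with a list median of 0.12. Ccr3, the eotaxin receptor, averaged 3.72 CPM with HDM and 0.271 CPM with saline, and ranged from 0.151 to 11.8 CPM among HDM mice. It was 1 of 5 tested eosinophil markers called, and the summed level of that list was 10.5 to 16.9 CPM in saline and 9.04 to 37.0 CPM in HDM mice. Of 10 tested genes of the type 2 cytokine axis, Il1rl1, the IL-33 receptor (1.33, adjusted p = 0.0020), and Crlf2, the TSLP receptor (1.23, adjusted p = 0.0005), were called higher. After rescaling 5 of the 10 were, with Il33 (1.17, adjusted p = 0.0252), Gata3 (0.48, adjusted p = 0.0109) and Il2rg (0.67, adjusted p = 0.0425) added, and the list's median went from 0.23 to 0.47. In HDM + Dex vs HDM no gene of these 3 lists was called (limma), though Crlf2 was called lower after rescaling (-0.74, adjusted p = 0.0489), and 4 of 10 chemokines, 1 of 11 receptors and 2 of 10 type 2 genes had an unadjusted p under 0.05.

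Marker lists of the cells that are known sources of these chemokines moved in different directions with HDM. Of 8 markers of alternatively activated macrophages, Retnla (5.73), Arg1 (5.31), Chil4 (3.65) and Chil3 (3.02) led the 5 called higher with HDM, and the summed level of the list was 211 to 288 CPM in saline and 483 to 4472 CPM in HDM mice. The lowest HDM sum was again that of replicate 2, and after rescaling Mrc1 was called higher too (1.12, adjusted p = 0.0291). Fibroblast markers split: Col3a1 (1.80) and Col1a1 (1.58) were called higher and Pdgfra (-0.87), Tcf21 (-0.97) and Dcn (-1.38) lower, of which Pdgfra alone stayed lower after rescaling. Markers of lung epithelium and endothelium summed to 10184 to 17573 CPM in saline, 4423 to 9144 CPM in HDM and 5358 to 14211 CPM in HDM + Dex mice, so that each HDM mouse lay below each saline mouse, with Scgb1a1 (-2.46) and Pecam1 (-0.44) called lower, the latter not after rescaling. Heart markers, which in mouse lung come from pulmonary vein muscle or attached tissue, summed to 532 to 948 CPM in saline and 20.1 to 397 CPM in HDM mice, and all 4 were called lower. The 3 tested markers of thymus or lymph node gave no call with HDM (limma), and 0 of them an unadjusted p under 0.05. In HDM + Dex vs HDM, Col1a1 (-0.85) and Col3a1 (-0.90) were the only marker genes called, and after rescaling the dendritic cell marker Fscn1 was called lower as well (-1.23, adjusted p = 0.0185). The part of each list in the members' results was not tested.

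The genes most like each member were found by Pearson's r of log2(CPM + 1) over the 24 mice, which share challenge, depth and 7SL share, so that r is a description. Rnase2a, a ribonuclease of the eosinophil-associated family, was the nearest gene to both Ccl11 (r = 0.957) and Ccl24 (r = 0.960). It was listed at 0 in each saline mouse and reached 33.0 CPM with HDM. The next were Chia1, acidic mammalian chitinase, for Ccl11 (r = 0.957) and Arg1, arginase 1, for Ccl24 (r = 0.955), and these r stayed at 0.917 and 0.943 with group means removed. C1qb, a complement subunit made by macrophages, was nearest to Ccl8 (r = 0.933) and Ccl12 (r = 0.903), and C1qa was second for Ccl12. Saa3, an acute-phase protein gene, was nearest to Ccl2 (r = 0.909) and second for Ccl7 (r = 0.877), after Socs1, and Il4i1 was second for Ccl2 (r = 0.896). The CCR4 ligands had looser partners: Mgl2 (r = 0.825) and Tnfsf15 (r = 0.818) for Ccl17, and Apol7c (r = 0.874) and Timp1 (r = 0.870) for Ccl22. The receptors were nearest to Mvd (r = 0.914) and AA467197 (r = 0.897) for Ccr4, and Ctsc (r = 0.882) and Zfp993 (r = 0.869) for Ccr2, and for AA467197 the r fell to 0.447 with group means removed.

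Within the 14 challenged mice the monocyte chemokines had higher r with each other than with the eotaxins, given as a description. With group means removed, r was 0.70 to 0.91 for Ccl8 with Ccl2, Ccl8 with Ccl12, Ccl2 with Ccl7, Ccl2 with Ccl12 and Ccl7 with Ccl12, and 0.65 for Ccl7 with Ccl8. The eotaxins gave lower values with the CCR2 ligands, from 0.23 (Ccl11 with Ccl7) to 0.46 (Ccl24 with Ccl2 and with Ccl12). With Ccl8 they were at 0.49 (Ccl11) and 0.59 (Ccl24), nearer to the 0.65 of Ccl7 with Ccl8. Ccl22 was associated with both, at 0.68 with Ccl24 and 0.79 with Ccl2, whereas Ccl17 was at 0.67 with Ccl11 and at 0.28 with Ccl2.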

How the data were processed

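Lung RNA of 24 mice was analysed as deposited. Its libraries were poly(A)-selected and strand-specific and were read from both ends, and the study's methods name Picard, STAR and limma. The submitters' processing notes list FastQC, STAR, DESeq2 and mm9. Yet the table's gene coordinates match the GENCODE annotation of GRCm38 (23140 of 23276 symbols with the same start), and GRCm38 positions are given here. The authors deposited 1 table of CPM, scaled to the same total in each library, with a constant of 0.0001 added. The counting tool and strand setting are not given in the sources used here.

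Depth was estimated from the spacing of low CPM values at 10.1 to 33.1 M reads per sample, and a floor of 3 reads lies at 0.0906 to 0.298 CPM. This covers counting error only. Since 80.6% to 85.4% of low values were whole multiples (tolerance 0.05), no count test was run. The labels number samples within groups and do not say that each is a separate mouse, which was assumed. If it does not hold, p-values measure only the spread between samples.

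Groups followed the labels. Limma 3.58.1 (R 4.3.3) was fitted to log2(CPM + 1) of the 17744 genes whose mean over all 24 samples reached 1 CPM, with eBayes (trend) and Benjamini-Hochberg adjustment over all genes, at 0.05. Comparisons among aged groups came from 1 fit of 19 samples, and aged vs. adult from 1 fit of 10. Log2 ratios of paired ligands, with 1 CPM added to each ligand, were tested by two-sided exact permutation (scipy 1.17.1, Python 3.11.15). The fit was tested on simulated data. Named genes were all members, the 2 genes most like each, and up to 4 called genes per list and comparison, those with the largest fold change; a few of these are not reported here. The members and lists were chosen with earlier results of these data known. Alternatives covered the pseudocount, the filter, rescaling, a replicate block, sex and 7SL covariates, the samples fitted, and each sample left out. A file without expression values was not used.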

Additional observations from a re-analysis of the deposited data

Results flagged for a closer look

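Of the 48 groups of values tested for a sample far from the others, 4 held one, where about 2.4 would arise by chance. Ccl24 in saline replicate 5 (0.0990 CPM, about 2 reads) lay below the other 4 saline mice, and Ccl22 in saline replicate 3 (4.01 CPM) lay above them. Ccl7 was high in naive adult replicate 4 (1.41 CPM) and in saline replicate 2 (1.26 CPM), each apart from the 4 other mice of its group, whose values were at most 0.341 and 0.318 CPM.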

How the results depend on the processing

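The directions of the members in HDM vs saline held in each alternative run, and of 1010 alternative values of members' fold changes 954 kept their direction and side of the threshold, 31 lost a call, 12 gained one and 13 changed sign. The called members in HDM vs saline were 9, against 4 at a mean of at least 5 CPM, a filter that fewer members pass, 5 with the 7SL covariate (1571 of all genes rather than 4482), and 7 to 10 with 1 sample left out (2954 genes, without saline replicate 3, to 5338). In HDM + Dex vs HDM the 171 genes called became 83 with no filter, 506 after median-of-ratios rescaling, 8 with the replicate block, 293 with sex, 563 with the 7SL share, 1 with only those groups fitted, and 2 (without HDM replicate 5) to 544 (without HDM replicate 2) with 1 sample left out. In HDM + Dex vs saline the 335 genes called became 213, 167, 898, 1929, 34 and 519 in the same order, and 66 (without saline replicate 3) to 772 (without HDM + Dex replicate 7) with 1 sample left out. Its 1 called member became 0 at pseudocount 5, with no filter, at 5 CPM, after rescaling and with the 7SL share, 2 with sex or only those groups, and 0 to 2 with 1 sample left out. In aged vs adult the 116 genes called became 67 at 5 CPM, 183 after rescaling, 65 in 1 fit of all 24 samples, which left 0 members called, and 74 (without naive adult replicate 2) to 154 with 1 sample left out. Ccl11 there was -0.041 after rescaling, -0.13 with sex, -0.057 with 7SL and -0.019 to 0.18 with 1 sample left out. Ccl24 was -0.018 after rescaling and -0.0082 to 0.083, Ccr4 -0.055 after rescaling and -0.029 to 0.061, and Ccl7 -0.20 to 0.18. Ccl8 in HDM + Dex vs HDM was -1.03 to 0.055. The log2 ratio of Ccl24 to Ccl11 was 0.78 at pseudocount 0.1 in HDM + Dex vs saline (-0.25 to 0.087 with 1 sample left out), and 0.028 at pseudocount 0.1 and 0.023 after rescaling in aged vs adult (-0.16 to 0.065). That of Ccl17 to Ccl22 in HDM vs saline was -0.10 at pseudocount 5 (-0.069 to 0.27), in HDM + Dex vs HDM -0.0078 to 0.33, and in aged vs adult -4.0e-05 to 0.23. Whether the replicate numbers pair the mice is not stated in the labels. Samples with the same number correlated by -0.24 to 0.41. Those with different numbers were not compared, so these values cannot tell whether the mice are paired. With the replicate block Ccl2 lost its call in HDM vs saline (0.97, adjusted p = 0.0726), Ccr4 lost and Ccl11 gained one in HDM + Dex vs saline, and no other member's call changed. The cause of these changes was not tested.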

Other observations

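Beyond the members, other chemokine genes differed between naive aged and naive adult lung. Ccl20, the ligand of CCR6, averaged 1.98 CPM in aged and 0.0324 CPM in adult mice, a log2 fold change of 1.48 (SE 0.21, adjusted p = 0.0020, limma). Its receptor gene Ccr6 rose by 1.71 (SE 0.25, adjusted p = 0.0020) on the same scale, from 0.924 to 5.34 CPM, and Cxcl13, a B cell attractant, by 1.79 (SE 0.29, adjusted p = 0.0052), from 0.837 to 5.13 CPM. Aged and adult values did not overlap for these 3 genes. Ccr1 (1.38, adjusted p = 0.0284) was the other receptor called. Prg2, an eosinophil granule protein gene, was the single one called of 5 tested eosinophil markers (0.99, adjusted p = 0.0429), at 1.25 CPM in aged and 0.0999 CPM in adult mice. Only 2 of the 5 had a fold change above 0, and their median was -0.04 beside 0.19 over all genes. The summed level of that list overlapped, at 7.02 to 16.5 CPM in adult and 10.5 to 16.9 CPM in aged mice. Col1a1 (-1.42, adjusted p = 0.0015) and Col3a1 (-1.28, adjusted p = 0.0330) were lower in aged mice. All 5 adult mice were female by Xist and Ddx3y, and 2 of the 5 aged mice.

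In HDM + Dex vs saline, genes of the same lists that were called higher included Il1rl1 (1.13, adjusted p = 0.0402) and the alternatively activated macrophage markers Retnla (5.91), Chil4 (5.13), Chil3 (2.40) and Mgl2 (1.196). After rescaling Il1rl1 (adjusted p = 0.0534) and Mgl2 (adjusted p = 0.0667) were not called. Ccrl2, an atypical receptor, was called lower (-0.79, adjusted p = 0.0465), but not after rescaling (adjusted p = 0.108). Mean Retnla was 564 CPM with HDM + Dex, 490 CPM with HDM and 6.07 CPM with saline.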
